A study of Saccharomyces cerevisiae with 32 samples.

Results

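Yeast strain Y22-3 was compared on xylose and on glucose in the presence of oxygen, gene by gene. The comparison took in every gene whose mean level over the 2 glucose and 2 xylose libraries reached 1 RPKM (reads per kilobase of gene, scaled to the depth of the library), which kept 5722 of the 6328 genes in the table and left out 606. Of the genes kept, 5397 carried a systematic name of the reference strain S288C and 111 carried only a Y22-3 locus name beginning GTK30. Y22-3 is a stress-tolerant Saccharomyces cerevisiae strain engineered with a bacterial xylose isomerase (CpXylA, from Clostridium phytofermentans), a xylulokinase (XYL3, listed as PsXyl3), an added transaldolase and a kanamycin resistance marker. The enzymes they encode lead from xylose through xylulose into the pentose phosphate pathway. The paper nevertheless describes Y22-3 as unable to metabolize xylose.

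The glucose group (YPD) and the xylose group (YPX) each held replicates A and B of Y22-3, grown at 30 °C with oxygen in rich yeast extract and peptone medium with 2% of the sugar, for about 3 generations to an optical density near 0.5. Both groups carried the xylose genes, so the control also expressed them. Duplicates came from different days. Single aerobic libraries of Y22-3 on galactose and on sorbitol gave levels only. The evolved descendants were Y127 (null mutations of ISU1 and HOG1) and Y128 (these and mutations of GRE3 and IRA2). Per the paper, Y127 was evolved on xylose with oxygen and respires it. Y128 was then evolved from Y127 without oxygen and ferments xylose. Each had 2 glucose and 2 xylose libraries under the same conditions, used to ask whether the sugar change of Y22-3 differed from theirs. The medium also supplies amino acids and other non-sugar carbon, and the labels give no growth rate, so the sugar, the rate of growth and the carbon actually consumed cannot be told apart.

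Yeast cells prefer glucose. When it is present, the Mig1 repressor and low activity of the Snf1 kinase keep off genes for other sugars, for ethanol and acetate use, for gluconeogenesis, for the glyoxylate cycle and for respiration, while protein kinase A and TOR signalling keep ribosome production high and stress defence low. When glucose is absent, Snf1 and the activators Cat8, Sip4, Adr1 and Hap4 turn those genes on. Xylose is not a natural sugar signal for this yeast.

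Total depth, estimated from genes without reads, was 18037546 and 16151827 reads for glucose A and B, 7528873 and 20936251 for xylose A and B, 9362743 for galactose and 17900540 for sorbitol. Levels correlated across genes at 0.994 between the glucose duplicates and at 0.979 between the xylose duplicates. The SD of the difference between A and B was 0.255 in glucose and 0.444 in xylose on the log2 scale. Xylose B stood further from glucose than xylose A: among the 1775 genes whose mean change was at least 2-fold, 1448 (81.6%) changed more in xylose B. Values of both xylose libraries are therefore given throughout, and the part of depth or culture stage in their difference was not tested. The engineered genes were read in all 4 libraries. CpXylA was at 14.21 and 14.27 log2 RPKM in glucose and at 14.12 and 14.31 in xylose, a difference of -0.02 ± 0.28 (SE, as after every ± below, with n = 2 libraries a group), and was among the 3 highest transcripts of each. PsXyl3 stood at 7.07 and 7.10 in glucose and at 6.70 and 6.39 in xylose.

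The sugar change was broad. With limma (adjusted p under 0.05, Benjamini-Hochberg over all 5722 genes), 1789 genes (31.3%) were higher in xylose and 1281 (22.4%) were lower. With a change of at least 2-fold also required, 1005 genes (17.6%) were higher and 730 (12.8%) lower. Both xylose libraries lay on the same side of both glucose libraries for 81.4% of the genes tested. The largest changes were upward, with 154 genes at least 16-fold higher and 10 genes at least 16-fold lower. The median gene level was 0.20 (log2) higher in xylose, and with every library centred on its median the split became 1629 higher and 2018 lower. All 1281 genes that were lower without centring were among those 2018, and 1627 genes were higher in both fits. Gene lists are given by the members tested. Members under the level minimum were not tested, namely 8 of sporulation, 5 hypoxic, 3 of mating, 2 hexose transporters, 2 for other sugars and 1 each of amino acid breakdown, alcohol and aldehyde dehydrogenases, flocculation, glycerol and iron.

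**Figure D1:**
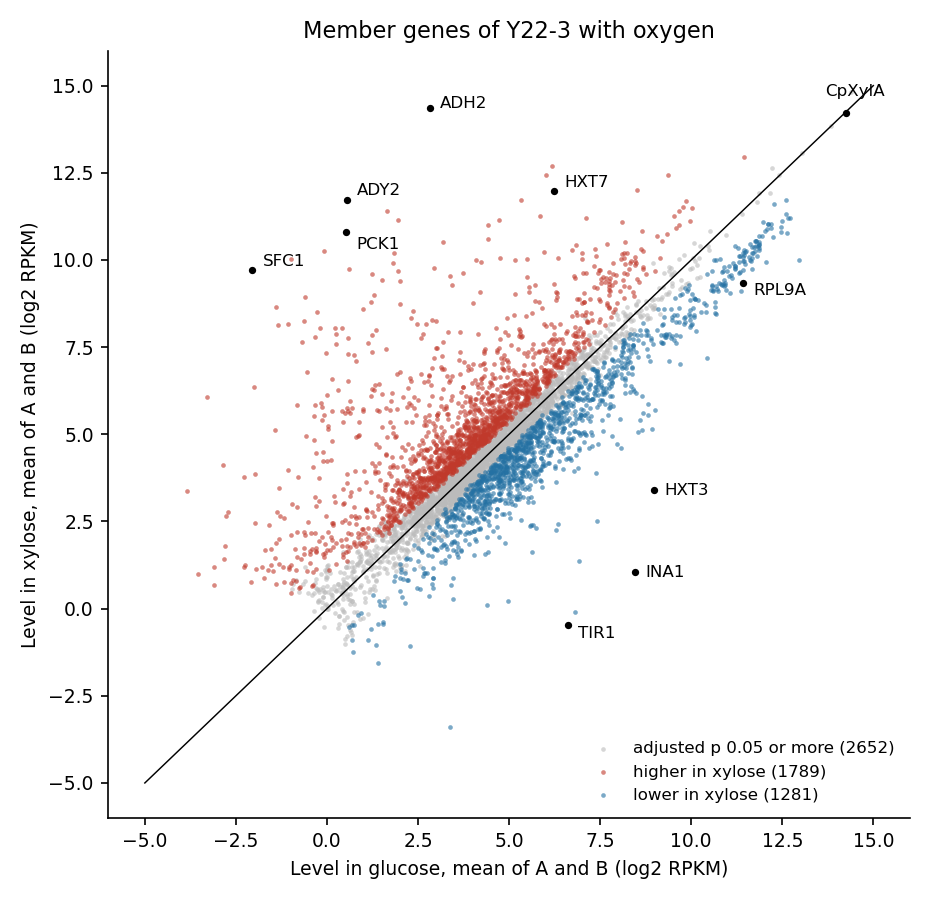
Mean level in glucose (x axis) against mean level in xylose (y axis), both in log2 RPKM, for the 5722 genes tested in Y22-3 with oxygen. Red points are the 1789 genes higher in xylose, blue points the 1281 lower and grey points the rest, and the line marks equal levels. ADH2, ADY2, PCK1 and SFC1 lie far above the line, INA1, TIR1 and HXT3 far below it, and CpXylA on it.

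Genes of gluconeogenesis, the glyoxylate cycle and the supply of acetate and C4 acids to them made the largest coordinated change. Of 22 members, 20 rose and 2 fell, with a median change of 7.69 (log2) against 0.10 over all genes. Each fit without 1 library, and the one with centring, also gave 20 and 2. The median level of the list went from 1.66 and 1.67 log2 RPKM in glucose A and B to 9.45 and 9.64 in xylose A and B. PCK1 (phosphoenolpyruvate carboxykinase, the committed step of gluconeogenesis) was at 0.60 and 0.43 in glucose and at 11.04 and 10.55 in xylose, 1246-fold higher (log2 10.28 ± 0.21, limma adjusted p = 2.29e-18). FBP1 (fructose-1,6-bisphosphatase, its other key enzyme) was at 0.89 and 0.31 in glucose and at 9.69 and 9.76 in xylose, a change of 9.13 ± 0.48. Neither gene had overlapping groups, as held for 81.4% of all genes tested.

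The glyoxylate cycle enzymes moved with them. ICL1 (isocitrate lyase) was read at 3.22 and 3.15 in glucose and at 10.51 in each xylose library (7.32 ± 0.16, limma adjusted p = 4.78e-18). MLS1 (malate synthase) went from 0.05 and -0.23 to 10.27 and 10.24 (10.35 ± 0.44). SFC1, the mitochondrial carrier that exchanges succinate for fumarate, had about 3 reads in each glucose library and 6561 and 15558 reads in xylose. Scaled to depth that is a ratio of 4428, with a 95% interval of 2034 to 12067 (exact binomial, counting error only). The acetate transporter ADY2 was at 0.70 and 0.39 in glucose and at 11.01 and 12.45 in xylose (11.18 ± 0.51). The duplicates of ADY2 in xylose lay further apart than those of the other genes named in this paragraph. No groups overlapped, which held for 81.4% of all genes tested and was a condition for naming the largest changes.

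Enzymes that oxidise ethanol and activate acetate rose as steeply. ADH2, the alcohol dehydrogenase that turns ethanol into acetaldehyde, was at 2.83 and 2.80 in glucose and at 13.92 and 14.80 in xylose (2984-fold, log2 11.54 ± 0.30, limma adjusted p = 5.88e-17), and it was the fourth most abundant transcript in xylose A and the second in xylose B. ALD4 (mitochondrial aldehyde dehydrogenase) went from 6.29 and 6.06 to 12.40 and 12.99, and ACS1 (acetyl-CoA synthetase) from 2.08 and 1.84 to 10.58 and 11.74 (9.20 ± 0.31). ADH1, the fermentative alcohol dehydrogenase, moved the other way, from 12.60 and 12.72 to 11.56 and 10.82 (-1.46 ± 0.31, limma adjusted p = 0.000556). Over the 15 pyruvate decarboxylases, alcohol and aldehyde dehydrogenases, 6 rose, 6 fell and 3 did not pass the test, with a median of -0.19.

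**Figure D2:**
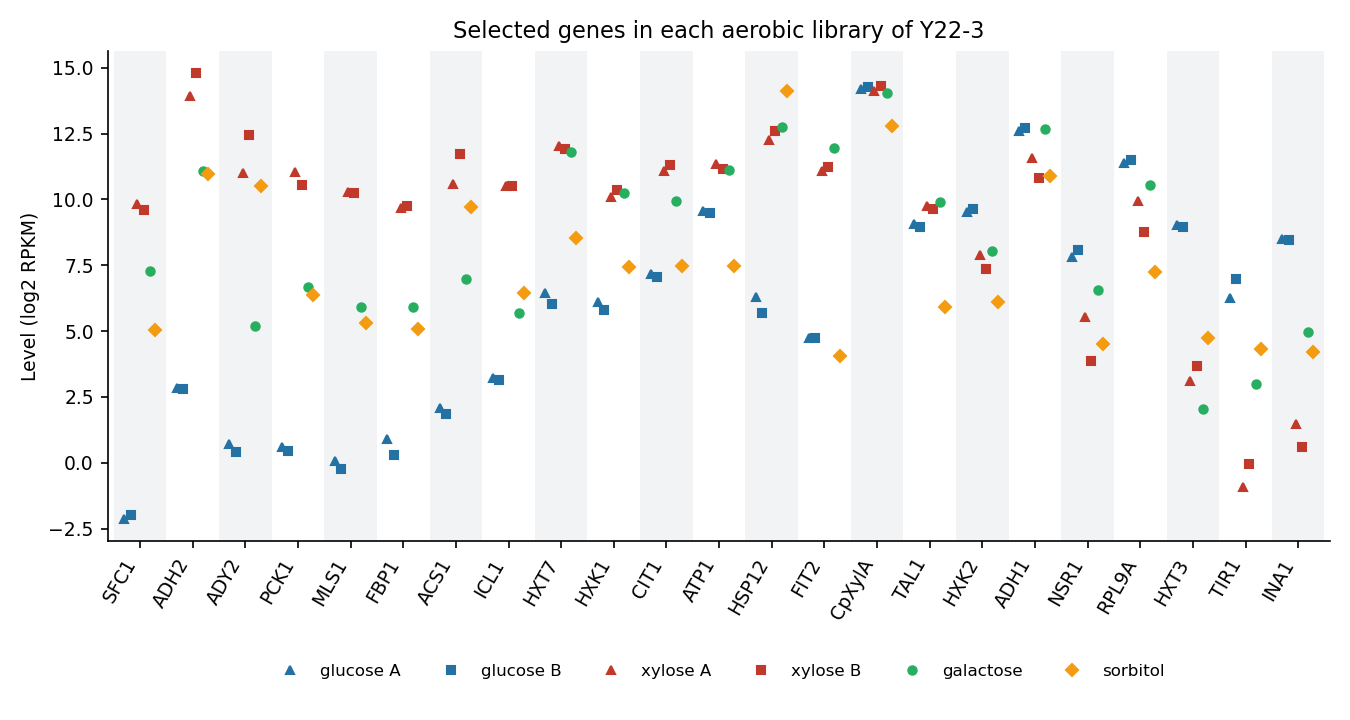
Level in log2 RPKM (y axis) of 23 genes in each aerobic library of Y22-3, with blue symbols for glucose, red for xylose (triangles A, squares B), green for galactose and orange for sorbitol. From SFC1 to FIT2 every xylose point lies above every glucose point, as for TAL1, and from HXK2 to INA1 below them, while the CpXylA points of the 2 sugars overlap between 14.12 and 14.31.

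Regulators of carbon use changed less than the enzymes, and unevenly. Of 15 activators and related factors, 11 rose and 2 fell (median 1.48), although without glucose B none fell. SIP4, an activator of gluconeogenic genes that acts with Cat8, had the largest change, from 0.56 and 0.58 to 7.23 and 7.35 (6.72 ± 0.24). CAT8 went from 0.74 and 0.13 to 5.26 and 5.42 (4.90 ± 0.28), and ADR1, the activator of ADH2 and of peroxisomal genes, from 3.41 and 3.23 to 8.02 and 7.84 (4.61 ± 0.22). HAP4, the limiting subunit of the activator of respiratory genes, rose less, from 5.74 and 5.66 to 7.66 and 7.02 (1.64 ± 0.23). XBP1, a repressor made in stress and slow growth, rose by 4.76 ± 0.33, and AZF1, a zinc finger factor, by 1.48 ± 0.18.

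Among 22 genes of glucose sensing and repression, 6 rose, 5 fell and 11 did not pass the test, with a median of -0.02. The 3 repressors of the Mig family fell: MIG1 from 4.67 and 4.44 to 3.38 and 3.26, MIG2 from 4.44 and 4.49 to 3.04 and 3.12, and MIG3 by 1.99 ± 0.50. Without xylose B the change of MIG3 was -1.25 and did not pass. SIP2, a subunit of the Snf1 kinase, rose from 3.26 and 3.35 to 6.65 and 6.69 (3.37 ± 0.19). SNF3, the high-affinity glucose sensor, rose by 2.16 ± 0.17 and MTH1, a repressor of hexose transporter genes, by 2.03 ± 0.21. Centring added 4 genes to those that fell, making 9.

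HXT3, the only low-affinity hexose transporter tested, moved opposite to the high-affinity HXT6 and HXT7. It was at 9.04 and 8.94 in glucose and at 3.11 and 3.66 in xylose, 48.6-fold lower (-5.60 ± 0.24, limma adjusted p = 1.36e-13). HXT7, a high-affinity transporter that can also carry xylose, went from 6.44 and 6.01 to 12.02 and 11.92 (5.75 ± 0.27), and its near-identical neighbour HXT6 from 2.96 and 2.80 to 8.35 and 8.23, so reads may be split between the pair. HXT2 rose by 1.42 ± 0.36, although without xylose B the change of 1.07 did not pass, and GAL2, the galactose transporter, rose from -1.64 and -1.22 to 0.47 and 2.40, a change that also failed without xylose B (1.90). Of the 5 glucose-repressed transporters 4 rose, and 2 without xylose B. The exception, HXT4, was at 4.20 and 4.40 in glucose and at 3.63 and 4.20 in xylose, and its change of -0.38 ± 0.36 did not pass. HXT1 and HXT5 were not analysed here.

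Hexose phosphorylation shifted between isoenzymes. HXK2, the main hexokinase of glucose growth and a cofactor of repression, fell from 9.52 and 9.65 to 7.88 and 7.36 (-1.97 ± 0.34, limma adjusted p = 5.74e-05). HXK1 rose from 6.10 and 5.79 to 10.10 and 10.37 (4.29 ± 0.24) and glucokinase GLK1 from 6.97 and 6.70 to 10.12 and 10.76 (3.61 ± 0.27). PFK27, a kinase making the fructose-2,6-bisphosphate that stimulates glycolysis, fell from 6.32 and 6.34 to 2.76 and 2.07, whereas its counterpart PFK26 rose by 2.07 ± 0.24. In lower glycolysis 4 of 11 genes rose, 4 fell and 3 did not pass, and the median was 0.02 (-0.18 with centring). Those that rose were minor or glucose-repressed isoenzymes: TDH1 by 4.52 ± 0.30, GPM2 by 3.41 ± 0.26, ENO1 by 2.19 ± 0.25 and PYK2 by 1.93 ± 0.18. TDH1 and ENO1 have close paralogues that may share reads.

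Most genes for other sugars rose. Of 14 genes for sucrose, maltose and galactose use, 10 rose and 1 fell (median 2.77). Invertase SUC2 went from 2.88 and 2.90 to 6.68 and 7.14 (4.02 ± 0.28), the isomaltase IMA1 from 3.15 and 3.13 to 6.66 and 7.23 and the galactose sensor GAL3 from 0.23 and -0.01 to 4.34 and 4.20. The maltase MAL32 had 2 and 3 reads in glucose and 38 and 63 in xylose. MAL, IMA and SUC genes belong to families whose members may share reads. GAL1 (galactokinase) was at 0.83 and 0.87 in glucose and 1.18 and 1.34 in xylose, which did not pass the test, beside 10.42 in the galactose library.

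The xylose route and the pentose phosphate pathway changed at their duplicated or minor members. Of 18 genes, 9 rose, 2 fell and 7 did not pass (median 0.50). PsXyl3 fell by 0.54 ± 0.20, a call lost without xylose B (-0.38) or without either glucose library. The native xylulokinase XKS1 rose from 2.59 and 2.40 to 4.39 and 4.54 (1.97 ± 0.23). GRE3, the aldose reductase that turns xylose into xylitol, rose from 6.17 and 6.10 to 7.60 and 7.77 (1.55 ± 0.16), and the xylitol dehydrogenase XYL2 from -0.57 and -0.11 to 3.10 and 3.32. The main transaldolase TAL1 went from 9.05 and 8.96 to 9.76 and 9.62 (0.69 ± 0.20), and its reads may include those of the added copy. The main transketolase TKL1 was at 9.83 and 9.89 in glucose and 9.55 and 9.04 in xylose and did not pass (limma adjusted p = 0.0617). Its value was past the threshold with centring, with the replicate block, and without xylose A (-0.82). The paralogues changed far more: TKL2 went from -0.35 and 0.31 to 6.89 and 7.74 (7.33 ± 0.42), the transaldolase paralogue NQM1 from 1.32 and 1.41 to 7.59 and 8.41 (6.64 ± 0.34) and GND2 (6-phosphogluconate dehydrogenase) from 0.39 and 0.42 to 5.38 and 5.95. GCY1, an aldo-keto reductase, rose by 4.48 ± 0.28.

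**Figure D3:**
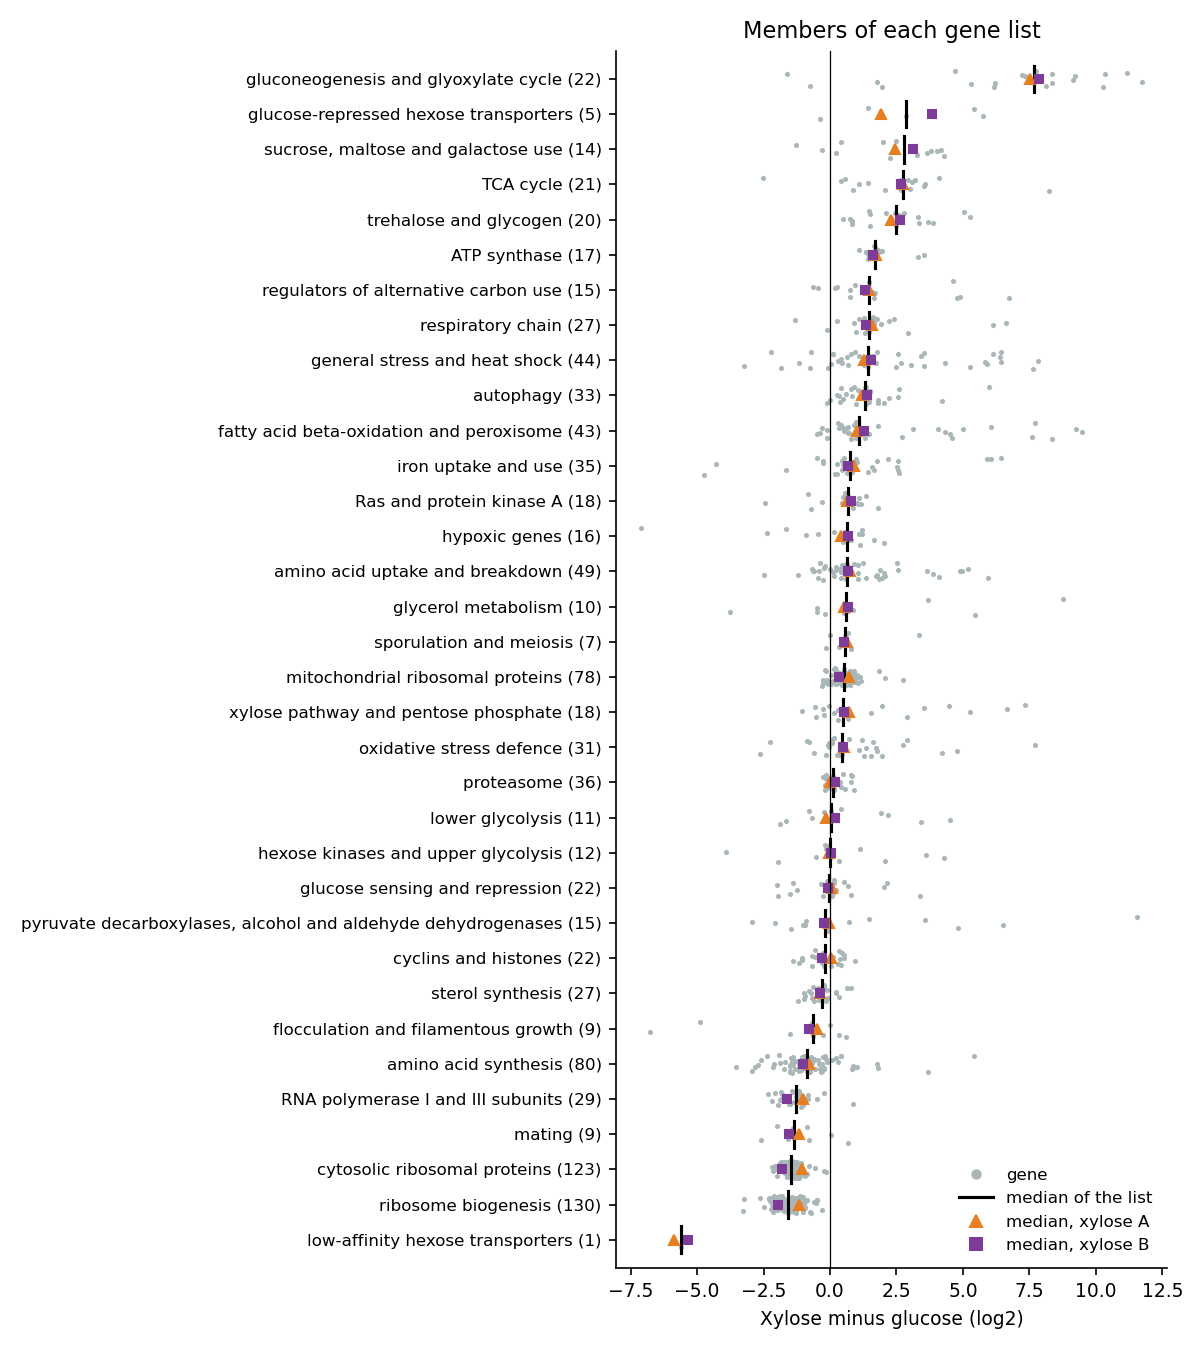
Change from glucose to xylose in log2 units (x axis) for the members of 34 gene lists (y axis, members measured in brackets), in Y22-3 with oxygen. Grey points are genes, black bars the median of each list, orange triangles the median of xylose A and purple squares that of xylose B, both against the glucose mean. Gluconeogenesis leads at 7.69, and the ribosomal and ribosome biogenesis lists lie at -1.45 and -1.58, with xylose B further from 0 than xylose A.

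Mitochondrial respiration genes rose together and by moderate amounts. In the TCA cycle 19 of 21 genes rose and 1 fell (median 2.73), in the respiratory chain 23 of 27 rose and 1 fell (1.46) and in the ATP synthase all 17 rose (1.70). Without single libraries 18 or 19, 23 or 24 and 17 rose. CIT1 (citrate synthase) went from 7.18 and 7.04 to 11.08 and 11.31 (4.09 ± 0.17), and CIT3, a mitochondrial enzyme that also makes methylcitrate, from -0.40 and 0.02 to 7.53 and 8.56 (8.24 ± 0.34). SDH1, the flavoprotein of succinate dehydrogenase, rose by 3.10 ± 0.17, to 8.86 and 8.78. ATP1 (ATP synthase subunit alpha) rose from 9.56 and 9.50 to 11.33 and 11.17 (1.72 ± 0.17), and the ATP synthase regulators STF2 and STF1 rose by 3.54 ± 0.28 and 3.30 ± 0.20.

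Within the respiratory chain list the largest changes were in dehydrogenases that feed the chain. Succinate dehydrogenase, itself a complex of the chain, was listed with the TCA cycle. Its genes SDH1, SDH2, SDH3 and SDH4 rose by 3.1, 2.75, 2.95 and 3.54. CYB2, which oxidises L-lactate, went from 1.55 and 0.91 to 7.57 and 8.12 (6.61 ± 0.25), NDE2, an external NADH dehydrogenase, from -0.30 and -0.33 to 5.10 and 6.56, and DLD1, which oxidises D-lactate, rose by 2.95 ± 0.20. COX4, a core cytochrome c oxidase subunit, rose from 8.27 and 8.21 to 9.73 and 9.49. CYC1 (cytochrome c) was at 9.44 and 9.37 in glucose and at 10.13 and 9.24 in xylose, so the groups overlapped and the change of 0.28 ± 0.23 did not pass. It was 0.73 and past the threshold without xylose B, and -0.17 without xylose A. Of 78 mitochondrial ribosomal proteins 44 rose and none fell (median 0.52), a count that dropped to 21 without xylose A and was 39 with centring, when 4 fell.

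Fatty acid breakdown rose with the enzymes of beta-oxidation in front. Of 43 genes of beta-oxidation and the peroxisome, 33 rose and 1 fell (median 1.08). POT1 (3-ketoacyl-CoA thiolase) went from -1.92 and -0.76 to 7.62 and 8.64 (9.47 ± 0.36) and POX1 (acyl-CoA oxidase) from -0.88 and -1.27 to 7.80 and 8.54 (9.25 ± 0.39). SPS19, the dienoyl-CoA reductase for unsaturated fatty acids, had 2 and 3 reads in glucose and 397 and 2061 in xylose. The peroxisomal catalase CTA1 went from 1.33 and 1.26 to 8.59 and 9.39. In glycerol metabolism 6 of 10 genes rose and 1 fell. The uptake and breakdown genes STL1 (glycerol symporter), GUT1 (glycerol kinase) and GUT2 (glycerol-3-phosphate dehydrogenase) rose by 8.78 ± 0.49, 3.69 ± 0.19 and 5.47 ± 0.20, while GPP1, the phosphatase that makes glycerol, fell from 8.86 and 8.99 to 5.56 and 4.74. STL1 was at -0.62 and 0.07 in glucose and at 8.69 and 8.32 in xylose.

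Amino acid breakdown and synthesis moved in opposite directions. Among 49 genes of uptake and breakdown 25 rose and 4 fell (median 0.64), and among 80 genes of synthesis 7 rose and 52 fell (median -0.85). GDH2, which releases ammonia from glutamate, went from 4.11 and 4.06 to 9.73 and 10.29 (5.93 ± 0.18, limma adjusted p = 7.48e-16), and GDH1, which makes glutamate, from 8.81 and 8.83 to 6.44 and 5.31 (-2.95 ± 0.49). The proline permease PUT4 rose from 2.68 and 2.49 to 7.53 and 7.99, the proline oxidase PUT1 from 1.56 and 1.05 to 5.93 and 6.60 and ARO10, a decarboxylase of aromatic amino acid breakdown, from 4.42 and 3.97 to 8.78 and 9.38. HIS1, the entry enzyme of histidine synthesis, fell from 8.61 and 8.69 to 5.62 and 4.60. Members of the synthesis list that rose included BAT2 (cytosolic branched-chain aminotransferase, active also in breakdown, 3.67 ± 0.27) and GDH3 (a glutamate dehydrogenase isoenzyme), which had 2 and 3 reads in glucose and 55 and 214 in xylose.

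Storage carbohydrate and stress genes rose. All 20 genes of trehalose and glycogen metabolism rose (median 2.48, with 17 to 20 without single libraries and 18 with centring), with synthesis and breakdown genes alike. GPH1 (glycogen phosphorylase) went from 2.76 and 2.49 to 7.72 and 8.05, GAC1 (a phosphatase subunit that promotes glycogen synthesis) from 0.51 and 0.89 to 5.72 and 5.78 and ATH1 (acid trehalase) from 2.96 and 2.67 to 6.40 and 6.94. In the general stress and heat shock list 28 of 44 rose and 6 fell (median 1.41). HSP12, a membrane-protecting heat shock protein, went from 6.30 and 5.70 to 12.26 and 12.61 (6.43 ± 0.78), HSP26, a small chaperone, from 3.41 and 3.37 to 8.96 and 10.11 and SIP18, a desiccation protein, from 0.47 and 0.37 to 7.77 and 8.35. SPG4, a gene of stationary phase, went from -0.06 and 0.51 to 7.30 and 8.83, and PAI3, a proteinase inhibitor, rose by 6.45 ± 0.44. Of 31 oxidative stress genes 16 rose and 5 fell, with the cytosolic catalase CTT1 going from 2.16 and 1.70 to 6.58 and 6.87.

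Genes upstream of stress defence and growth changed less. MSN2, one of the paired general stress activators, was at 5.29 and 5.16 in glucose and at 5.30 and 5.00 in xylose (-0.07 ± 0.16, not past the threshold except with centring, where it was -0.27). Its partner MSN4 rose from 4.27 and 4.03 to 5.76 and 5.71 (1.59 ± 0.23). Of 18 Ras and protein kinase A genes 12 rose and 3 fell (median 0.69). The catalytic subunit TPK2 rose by 1.17 ± 0.21, the opposing kinase YAK1 by 1.34 ± 0.19 and the Ras inhibitor IRA2 by 1.03 ± 0.17, while RAS1 fell from 5.46 and 5.56 to 3.46 and 2.64. Of 33 autophagy genes 25 rose and none fell (median 1.33), led by receptors: ATG39, for the nuclear envelope, went from -0.11 and 0.68 to 5.96 and 6.58 and ATG19, for cytosol-to-vacuole cargo, from 1.42 and 1.46 to 5.36 and 5.97.

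Protein synthesis genes fell almost as a block. Of 123 cytosolic ribosomal proteins 121 fell and none rose (median -1.45), of 130 ribosome biogenesis genes 126 fell and none rose (-1.58), and of 29 subunits of RNA polymerases I and III 27 fell and 1 rose (-1.28). Leaving out single libraries left at least 113, 114 and 23 that fell, the lowest without xylose B. The fall was larger in xylose B in all 3 lists, at -1.82 against -1.07 for ribosomal proteins, -1.97 against -1.16 for biogenesis and -1.63 against -1.01 for the polymerases. NSR1, a nucleolar protein of pre-rRNA processing, was at 7.81 and 8.09 in glucose and at 5.54 and 3.88 in xylose (-3.24 ± 0.36). DBP2, an RNA helicase, fell by 3.28 ± 0.31, and RPA135, the second largest subunit of RNA polymerase I, from 7.03 and 7.14 to 5.60 and 4.44. RPL9A and RPS22A fell by 2.08 ± 0.38 and 2.09 ± 0.35, with the caution that paralogous ribosomal protein genes may share reads. These values are relative to total mRNA, and a smaller pool of mRNA per cell cannot be told apart from an unchanged one. The list of cyclins and histones had 3 rising and 3 falling members of 22 and a median of -0.19, and without glucose B 1 rose and 1 fell.

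Iron genes gave a mixed response. Of 35 genes 23 rose and 4 fell (median 0.77). The mannoproteins that hold iron-siderophore complexes in the cell wall rose, FIT2 from 4.73 in each glucose library to 11.08 and 11.25 (6.43 ± 0.27), FIT3 from 3.67 and 3.82 to 9.33 and 9.93 and FIT1 from 2.04 and 2.07 to 4.66 and 4.62. The reductase FRE5 went from -2.65 and -1.90 to 3.55 and 4.01. Reductase FRE4 and the low-affinity iron transporter FET4 moved down, from 4.72 and 5.20 to 0.22 and 0.20 and from 4.13 and 4.65 to -0.18 and 0.40. ISU1, the scaffold for iron-sulphur clusters that is mutated in the evolved strains, rose from 7.14 and 7.08 to 9.49 and 9.76. HOG1, also mutated there, went from 7.43 and 7.42 to 6.48 and 6.37.

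The hypoxic list, which the study selected from the literature, was mixed with oxygen present: of 16 members 8 rose and 5 fell. Without glucose B 5 rose, and without xylose B 3 fell. ANB1, a translation factor gene specific to low oxygen, lay under the level minimum. The list was not uniformly near 0 in glucose, as TIR1, a cell wall mannoprotein, was at 6.24 and 6.98 and dropped to -0.91 and -0.06 in xylose (-7.10 ± 0.36), and TIR3 was at 6.27 and 6.05 and fell by 1.66 ± 0.21. AAC3, the hypoxic ADP/ATP carrier, was low in both sugars (1.19 and 1.53, then -0.80 and -1.27). With centring 5 rose and 5 fell.

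The remaining lists changed little or through a few members. Of 36 proteasome genes 5 rose and none fell (median 0.10), and with centring 5 rose and 6 fell (-0.09). Of 27 sterol synthesis genes 2 rose and 10 fell (median -0.29), while 5 fell without xylose B and 17 with centring. ERG7 (lanosterol synthase) fell by 0.94 ± 0.16. Of 9 flocculation and filamentous growth genes 5 fell (3 without xylose B), with the flocculin FLO10 at 7.33 and 7.51 in glucose and 2.48 and 2.54 in xylose and FLO9 at 3.38 and 3.39, then -2.66 and -4.14. Flocculin genes share repeats and may share reads. Of 9 mating genes 6 fell and 1 rose (none without single libraries). Those that fell included the a-factor gene MFA2 (10.72 and 10.58, then 8.91 and 8.38), the receptor STE2 (-1.57 ± 0.37) and the protease BAR1 (-2.59 ± 0.47). Of 7 sporulation genes 2 rose, and the 7 had median levels between 0.03 and 1.56 log2 RPKM in the 4 libraries.

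Outside the lists, the genes with the largest changes included several of little known function. RGI2, a gene of respiratory growth, went from -1.57 and -0.41 to 9.36 and 10.70 (11.02 ± 0.41), and FDH1 (formate dehydrogenase, which has a near-identical copy in some strains) from -1.18 and -1.61 to 7.75 and 9.54 (10.04 ± 0.55). DPA10 (YLR307C-A) had 2 reads in each glucose library and 1118 and 2400 in xylose. Of the 111 genes with only a Y22-3 locus name, 53 rose and 11 fell. GTK30K00190 went from 1.78 and 1.52 to 11.33 and 11.49, and GTK30P00120 from -3.38 and -3.22 to 5.38 and 6.75. In the other direction INA1 (YLR413W) fell from 8.48 and 8.45 to 1.49 and 0.59, which at -7.42 ± 0.25 was the largest fall among genes of at least 10 RPKM. GTK30H01550 went from 6.96 and 6.68 to -0.23 and 0.04 and GTK30I00260 from 5.54 and 5.71 to 1.26 and 2.00. AAH1, an adenine deaminase that is turned over on entry into quiescence, fell from 6.19 and 6.40 to 3.29 and 1.22.

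In the single galactose library, gluconeogenesis and glyoxylate genes lay between those in glucose and xylose, with a median of 6.02 log2 RPKM. In sorbitol it was 6.41. PCK1 was at 6.69 in galactose and 6.38 in sorbitol, ADY2 at 5.18 and 10.52, and ADH2 at 11.09 and 10.95, each above both glucose libraries and below both xylose libraries. The median of the ribosomal protein list was 10.93 and 10.94 in glucose, 9.91 and 9.02 in xylose, 10.30 in galactose and 7.66 in sorbitol. For TCA cycle genes it was 6.98 and 6.97 in glucose, 9.54 and 9.41 in xylose, 9.14 in galactose and 6.29 in sorbitol. HXT7 was as high in galactose (11.82) as in xylose, HSP12 was higher in sorbitol (14.13) and INA1 was at 4.97 in galactose and 4.21 in sorbitol. One library per condition allowed no test.

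The sugar change of Y22-3 was then compared with that of the evolved strains, which share no library with it. Both comparisons used the same 4 Y22-3 libraries, so the differences with Y127 and with Y128 are not independent of each other. In Y128, 429 genes (7.5%) had a change higher than in Y22-3 and 489 (8.55%) a lower one (limma, interaction contrast, adjusted p under 0.05). Leaving out 1 of the 8 libraries gave 205 to 747 higher and 282 to 489 lower. Both lowest counts came without xylose B of Y22-3 and both highest without its xylose A. In Y127, 165 genes (2.88%) were higher and 965 (16.9%) lower. Replicate B of Y127 on xylose stood apart, with 52.6% of its reads on genes of reference length where the other aerobic glucose and xylose libraries had at least 67.1%, and without it the counts were 173 (3.02%) and 458 (8%). Without replicate A they were 103 and 1974, and over the 8 libraries left out in turn 59 to 461 genes were higher (without xylose B and without xylose A of Y22-3) and 458 to 1974 lower. The count of 965 also fell to 522 without glucose B of Y22-3, 589 without its xylose B and 561 without one glucose library of Y127.

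Gluconeogenesis and glyoxylate genes changed more in Y22-3 than in its descendants. Their median change of 7.69 compared with 1.89 for Y127 and 2.26 for Y128. The change of 20 of the 22 was lower in Y128 (18 or 19 without single libraries, 20 with centring) and of 19 lower in Y127, also 19 without its replicate B. PCK1 was at 3.53 and 3.81 on xylose in Y128 and at 0.04 and 0.10 on glucose, so its change was lower than that of Y22-3 by a difference of -6.68 ± 0.30 (limma adjusted p = 4.01e-12). ICL1 reached 4.56 and 4.50 on xylose in Y128 (difference -5.27 ± 0.23), ADH2 6.82 and 6.97 (-7.52 ± 0.42) and ACS1 3.61 and 3.56 (-7.08 ± 0.44). ADY2 stayed at 0.84 and 0.55 in Y128 and at 1.70 and 0.81 in Y127, beside 11.01 and 12.45 in Y22-3, which made differences of -11.16 ± 0.72 and -10.25 ± 0.72. FDH1 differed by -7.98 ± 0.77 in Y128 and -8.21 ± 0.77 in Y127.

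**Figure D4:**
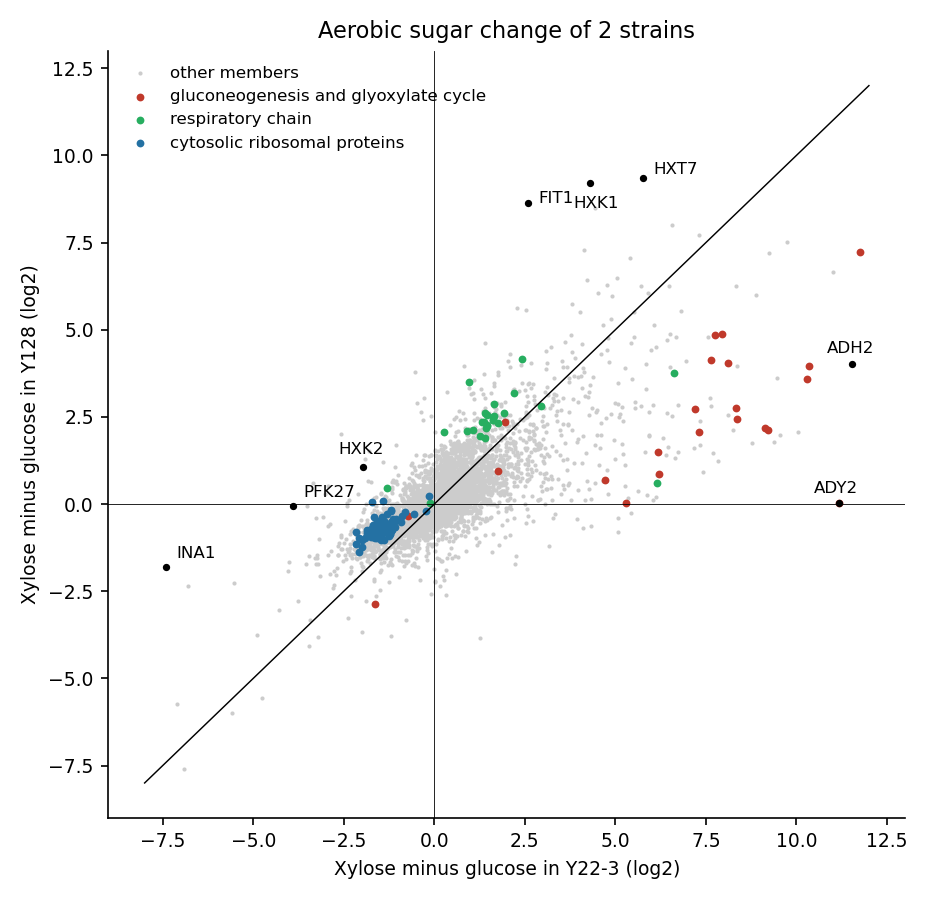
Change from glucose to xylose with oxygen in Y22-3 (x axis) and in Y128 (y axis), both log2, for the 5722 genes. Red points are gluconeogenesis and glyoxylate genes, green the respiratory chain, blue the cytosolic ribosomal proteins, black the genes labelled by name and grey the other genes, and the diagonal marks equal change. Most red points lie below the diagonal (medians 7.69 and 2.26), most green points above it (1.46 and 2.34), and FIT1, HXK1 and HXT7 stand high above it.

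Stress genes also changed less in the descendants. In the stress list the median of 1.41 compared with -0.07 for Y127 and 0.78 for Y128, with 18 of 44 genes lower in Y128 and 2 higher. The 18 became 11 without glucose B of Y22-3. CTT1 was at -0.04 and 0.15 on xylose in Y128, so that its change was lower by -4.50 ± 0.41, and NQM1 was at 1.39 and 1.73 (-5.33 ± 0.49). SPG4 was at 0.37 and 0.58 on xylose in Y127 (difference -8.11 ± 0.99). GTK30P00120 differed in Y128 by -7.60 ± 0.91. GDH2, at 6.24 and 6.38 in Y128 on xylose, differed by -3.29 ± 0.26, and GRE3, which is mutated in Y128, was at 5.06 and 5.08 on glucose and at 5.11 and 5.02 on xylose there (-1.55 ± 0.23). Of the trehalose and glycogen genes 7 of 20 had a lower change in Y128 and 1 a higher one, and 4 a lower one without glucose A of Y128.

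By list median, respiratory chain, ATP synthase and mitochondrial ribosomal genes rose less in Y22-3 than in Y128, while cytosolic ribosomal protein genes fell more. The TCA cycle list went the other way, with a median of 2.73 in Y22-3 and 2.3 in Y128. Of its 21 genes, 3 had a higher change in Y128 and 2 a lower one. Y127 did not share the larger respiratory rise, with medians of 1.3 for the respiratory chain and 1.44 for the TCA cycle. In the respiratory chain the median change was 1.46 in Y22-3 and 2.34 in Y128. The change was higher in Y128 for 14 of 27 genes and lower for 2, counts that varied when single libraries were left out. In the ATP synthase the change of 12 of 17 was higher and of 1 lower. On glucose COX4 and ATP1 were lower in Y128 than in Y22-3, at 7.08 and 6.99 and at 8.47 and 8.41. On xylose they were at 9.38 and 9.37 and at 11.31 and 11.40 in Y128, near the levels of Y22-3. Levels of whole lists were not tested between strains. Mitochondrial ribosomal proteins had medians of 0.52 and 1.46, and 46 of 78 were higher in Y128, a count that was 8 without xylose B of Y22-3 and 58 without its xylose A. HAP4 was higher by 1.84 ± 0.32 in Y128, where it was at 4.11 and 4.12 on glucose and 7.58 and 7.61 on xylose. Ribosomal protein genes had a median of -1.45 in Y22-3 beside -0.74 in Y127 and -0.73 in Y128. Of the 123, 9 passed the test of the difference with Y128, all with a higher change there. That is no larger a share than the 7.5% of all genes tested, and the count varied widely when single libraries were left out.

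Some of the differences with Y128 arose on glucose. HXK1 was at 0.62 and 0.76 on glucose in Y128 against 6.10 and 5.79 in Y22-3, while on xylose the strains stood at 9.81 and 10.03 and at 10.10 and 10.37, and the difference in change was 4.94 ± 0.34. HXT7 likewise was at 2.92 and 2.83 on glucose in Y128 and at 12.20 and 12.26 on xylose (difference 3.60 ± 0.38), and MTH1 at 1.27 and 1.22, then 5.39 and 5.33 (2.08 ± 0.30). Other differences arose on xylose. HXK2 was at 9.91 and 9.92 on glucose and at 10.95 and 11.01 on xylose in Y128, against its fall in Y22-3 (3.04 ± 0.48), PFK27 stayed at 6.02 and 5.99, then 5.91 and 5.99 (3.86 ± 0.33), and GDH1 went from 8.88 in each library to 9.37 and 9.46 (3.48 ± 0.69). FIT1 reached 11.19 and 11.18 on xylose in Y128 and 11.17 and 11.23 in Y127, beside 4.66 and 4.62 in Y22-3 (6.03 ± 0.36 and 6.09 ± 0.36). INA1 was at 6.61 and 6.86 on xylose in Y128 and at 7.10 and 7.94 in Y127, beside 1.49 and 0.59 in Y22-3 (5.62 ± 0.35 and 6.51 ± 0.35). HXT6 changed by 3.19 ± 0.42 more in Y127.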

How the data were processed

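RNA was depleted of rRNA and sequenced as stranded single-end libraries. Per the labels and methods, the authors trimmed reads with Trimmomatic 0.3.0, mapped them to the Y22-3 genome with Bowtie2 2.2.2 and counted them per gene with HTSeq 0.6.0. The deposited values are log2 RPKM, 1 read apparently having been added to each gene. These are not counts, so limma 3.58.1 (R 4.3.3, variance trend) was fitted to the log2 values of 24 libraries in 12 duplicated groups (12 residual degrees of freedom), without a pairing term, and p-values were adjusted over all 5722 genes. Depth and low read numbers were recovered from 21 genes without reads, using reference gene lengths. The median depth over these genes was taken, and in each library 10 of them lay within 1% of it. Depths and read numbers are therefore estimates. Of values under 50 reads, 83.1% were whole to within 0.1 read. SE is the moderated standard error and n is 2 libraries per group. Each gene had a single spread shared by all 12 groups, so an SE may be too small where duplicates differ more. In Y22-3 with oxygen the SD of A minus B was 0.444 on xylose and 0.255 on glucose. Nothing says which letters share a day, so p-values measure the spread between these samples. Same-lettered libraries of Y22-3 on glucose and on xylose with oxygen did not deviate together (r = -0.091). The other groups were not checked for this. The 4 columns of Y127 on glucose are all lettered A, each name being given to a pair of columns, so their replicates are not known. The scripts were tested on simulated data.

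The members and gene lists were chosen with earlier results of these data known. Named genes were the 12 largest changes in each direction (at least 10 RPKM, groups apart), up to 4 called genes with the largest change in each list, a set list of carbon and xylose genes, and the 3 largest strain differences in each direction. COB, COX1, OLI1, HXT4 and GAL1 were named after their values were seen. The alternatives were centring, fewer libraries, other level minimums, log2(RPKM + 1), no variance trend, a fold threshold, a replicate block and leaving out single libraries. The promoter motif search was not run and no sequence is printed, because no genome of the build used was at hand. The galactose and sorbitol libraries have no replicate.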

Additional observations from a re-analysis of the deposited data

Results flagged for a closer look

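Each result here is a sugar change that differed between strains by an interaction test, with oxygen. Counted over genes, the change of Y127 was higher than that of Y22-3 for 165 and lower for 965, and the change of Y128 was higher for 429 and lower for 489.

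Against Y22-3, the change in Y128 differed by -11.16 (log2) for ADY2, -7.98 for FDH1, -7.60 for GTK30P00120, -7.52 for ADH2, -7.08 for ACS1, -6.68 for PCK1, -5.33 for NQM1, -5.27 for ICL1, -4.50 for CTT1, -3.29 for GDH2 and -1.55 for GRE3. It was higher in Y128 by 6.03 for FIT1, 5.62 for INA1, 4.94 for HXK1, 3.86 for PFK27, 3.60 for HXT7, 3.48 for GDH1, 3.04 for HXK2, 2.08 for MTH1 and 1.84 for HAP4. The change in Y127 differed by -10.25 for ADY2, -8.21 for FDH1, -8.11 for SPG4, 6.51 for INA1, 6.09 for FIT1 and 3.19 for HXT6.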

How the results depend on the processing

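Of 132 gene changes and 26 strain differences checked under every alternative that could be fitted, CpXylA, CYC1 and MSN2 turned sign, none of them past the threshold in the main test. Leaving out single libraries gave -0.12 to 0.07 for CpXylA, -0.17 to 0.73 for CYC1 and -0.22 to 0.07 for MSN2. No strain difference changed its call. With at least 2-fold required, 1005 genes were higher in xylose and 730 lower, and centring gave 2018 lower. Without single libraries 1417 to 1558 were higher and 875 to 1394 lower. The replicate block, with letters as pairs, gave 1776 and 1319. For Y127 against Y22-3, centring gave 939 higher, fitting only these strains gave 77 higher and 563 lower, and the 2-fold rule 626 lower. Leaving out single libraries gave 59 to 461 higher and 458 to 1974 lower. For Y128, centring gave 871 higher, fitting only the libraries compared 718 higher and 940 lower, and fitting only these strains 758 lower. Leaving out single libraries gave 205 to 747 higher and 282 to 489 lower, and the replicate block 511 and 473. No block could be fitted for Y127, whose glucose columns are all lettered A. The cause of these shifts was not tested. Depth limits genes with a few reads in glucose, and the 7528873 reads of xylose A are the fewest.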

Other observations

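The libraries were made without selecting poly(A) RNA, so transcripts of the mitochondrial genome were also read. Of its 19 measured genes 16 rose on xylose, none fell and 3 did not pass the test, with a median change of 1.40 (log2). OLI1, ATP synthase subunit 9, was at 11.49 and 11.38 log2 RPKM in glucose and at 13.03 and 12.88 in xylose, and was the most abundant transcript of the sorbitol library. COX1, a core subunit of cytochrome c oxidase, went from 8.30 and 7.92 to 10.02 and 10.34 (2.07 ± 0.20), and COB, apocytochrome b, from 8.16 and 8.10 to 9.22 and 9.61. This group and these genes were chosen after their values were seen.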
